A study of Danio rerio with 4 samples.

Results

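The brain of wild-type zebrafish (Danio rerio) exposed to butylparaben at 0.1 mg/L was compared with that of fish exposed to 0.01 mg/L, gene by gene. Butylparaben is a preservative ester used in cosmetics and medicines. The ratio uses 2 of the 4 libraries of the series, the ones labelled BuP 0.1 mg/L and BuP 0.01 mg/L. The remaining ones, butylparaben at 1.0 mg/L and a control in 0.1% dimethyl sulfoxide (DMSO), enter only the filter, the scaling and the values given as background. Genes were kept when they averaged at least 1 CPM (counts scaled to the size of each library) over the 4 libraries, which left 16522 of the 32520 genes in the authors' table. Of the kept genes, 96.9% were protein coding. The treatment labels name DMSO for the control alone, and the sources used here do not give the length of exposure, the age and sex of the fish, or how many fish made up a library.

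Each group held 1 library. No difference below can be set against the spread between fish, no test between the doses was possible, and no p-value is given. The rule for a call, higher or lower, was that log2 of (CPM + 0.5) differed by at least 1 and the exact 95% interval of the count ratio excluded 1. That interval covers counting error only. The libraries held 9907714 counts at 0.1 mg/L and 10140963 in the 0.01 mg/L library, close to the 9750590 at 1.0 mg/L and 11099317 in the control. Genes of neurons were abundant in both libraries: the synaptic vesicle fusion gene snap25a had 4208 CPM at 0.1 mg/L and 4351 CPM in the 0.01 mg/L library, and elavl3, which codes for a neuronal RNA-binding protein, had 192 CPM at 0.1 and 208 CPM at 0.01 mg/L. None of the 11 neuronal genes looked at was called.

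Some biology helps in reading what follows. Interferons are secreted when cells sense viral nucleic acid or related danger signals. They act through STAT transcription factors to switch on a broad set of antiviral genes, and feedback inhibitors of the SOCS family then damp the signal. Glucocorticoid hormones act through a nuclear receptor on target genes such as fkbp5 and klf9, and the circadian clock runs on repressors of the period, cryptochrome and nr1d families. Memory formation depends on calcium-triggered kinases at synapses, of which CaMKII is the best known.

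At 0.1 mg/L, 282 genes were called higher (1.71% of those compared) and 272 lower (1.65%), so 554 in all (3.35%). The median log2 ratio of all genes was 0.02, the standard deviation of the ratios across genes was 0.44, and 14334 genes (86.8%) lay within 1.5-fold of equality. The difference reached 4-fold in 34 of the higher and 26 of the lower genes. With the ratio taken on library totals in place of TMM factors the split was 377 higher and 182 lower, and in the authors' TPM it was 381 higher and 121 lower. These scalings moved the median of all genes to 0.14 and 0.24. The same rule called 561 genes (3.4%) at 1.0 over 0.01 mg/L and 538 genes (3.26%) at 1.0 over 0.1 mg/L, comparisons that share libraries with this one.

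Calls were more frequent among scarce genes. At a mean of 1 to 5 CPM over the pair 7.41% of genes were called, at 5 to 20 CPM 2.3%, at 20 to 100 CPM 0.787%, and at 100 CPM or more 0.726%. The share over all genes that stands beside each list below, 3.35%, is not matched to the level of the list members. Of the 282 higher genes, 211 had their highest level of the 4 libraries at 0.1 mg/L and 209 their lowest at 0.01 mg/L. Of the 272 lower genes, 212 were lowest at 0.1 mg/L and 200 highest at 0.01 mg/L. The long arm of chromosome 4, which in zebrafish is rich in repeats and multicopy gene families, held many calls: 45 of 279 genes starting beyond 30 Mb (16.1%), 29 higher and 16 lower, against 2.16% of the 462 genes nearer the start of that chromosome. Reads of near-identical copies are shared among genes by the counting program, so values of single members there are uncertain.

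**Figure D1:**
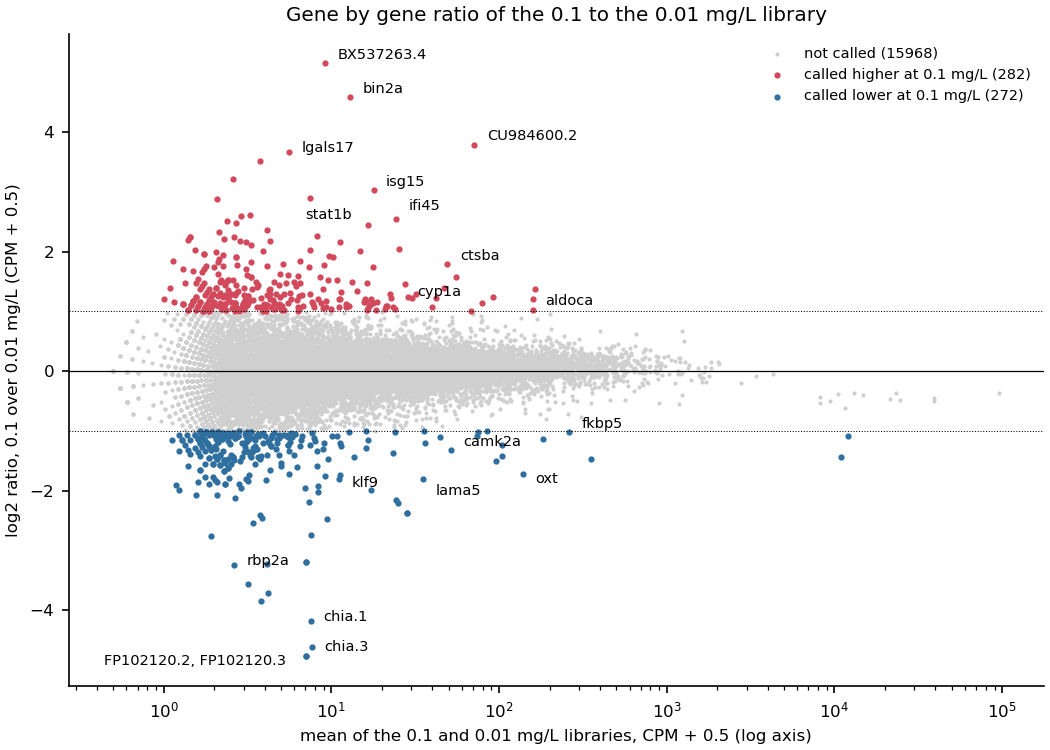
Each point is 1 of 16522 genes, with the mean of the 0.1 and 0.01 mg/L libraries (CPM + 0.5, log axis) across and the log2 ratio of 0.1 over 0.01 mg/L upward. Red marks the 282 genes called higher, blue the 272 called lower, grey the rest, and dotted lines stand at log2 ratios of 1 and -1. The calls crowd at low levels. The highest points are the ribosomal RNA entry BX537263.4 and bin2a, and the lowest are the small nuclear RNA copies FP102120.2 and FP102120.3, which coincide, and chia.3.

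Interferon-stimulated genes were the list with the highest median. Of 45 measured members out of 79 listed, 15 were called higher and 0 lower, a share of 33.3% against 3.35% of all genes, and 33 lay above 0. Their median log2 ratio was 0.58, or 0.56 above that of all genes. Each of the 15 had its highest level of the 4 libraries at 0.1 mg/L, as did 211 of all 282 genes called higher. The filter averages the 4 libraries, so a scarce member could pass it through its level at 0.1 mg/L. Summed over the list the level was 629.8 CPM at 0.1 mg/L and 417 CPM in the 0.01 mg/L library, beside 451 CPM at 1.0 mg/L and 380 CPM in the control.

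The list is described from its sensors and factors to its effectors. Among sensors of foreign nucleic acid, dhx58, which codes for the RNA helicase LGP2, had 49 counts at 0.1 mg/L and 7 in the 0.01 mg/L library, and the adaptor gene of DNA sensing, sting1, had 19 counts at 0.1 and 0 counts at 0.01 mg/L. The RNA sensor gene ifih1 (1.98 CPM at 0.1 against 1.16 CPM at 0.01 mg/L) and the adaptor gene mavs (26.7 CPM at 0.1 against 27.0 CPM at 0.01 mg/L) were not called. Of the transcription factors, stat1b (ENSDARG00000076182, chromosome 9, 41218967 to 41247197 in GRCz11, the build of all positions given) had 27.5 CPM at 0.1 mg/L and 4.66 CPM in the 0.01 mg/L library, a 5.898-fold ratio with an interval of 4.28 to 8.30. Its levels at 1.0 mg/L and in the control were 4.33 CPM and 1.51 CPM, so the 0.1 mg/L library stood apart from the other 3. The second zebrafish copy, stat1a, was at 88.4 CPM at 0.1 and 71.1 CPM at 0.01 mg/L, without a call. Its partner stat2 was 2.496-fold higher, at 31.4 CPM at 0.1 against 12.6 CPM at 0.01 mg/L.

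Interferon regulatory factors were uneven. The gene irf7, which drives interferon production, had 42 counts at 0.1 mg/L and 5 in the 0.01 mg/L library, and irf1b had 21.6 CPM at 0.1 and 9.42 CPM at 0.01 mg/L. For irf1b the 1.0 mg/L library, at 17.2 CPM, came close to the 0.1 mg/L library. Below the threshold were irf9 (18.6 CPM at 0.1 against 11.5 CPM at 0.01 mg/L), irf2, irf5, irf10 and irf8, and the last of these, a factor of macrophages and microglia, had 9.32 CPM at 0.1 against 11.3 CPM at 0.01 mg/L. The feedback inhibitor gene socs1a was 3.064-fold higher, at 15.6 CPM at 0.1 against 5.08 CPM at 0.01 mg/L.

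Effector genes had the widest ratios. The gene isg15 (ENSDARG00000086374, chromosome 5, 20112032 to 20113284), whose product is a ubiquitin-like protein, had 316 counts (31.3 CPM) at 0.1 mg/L and 32 counts (3.39 CPM) in the 0.01 mg/L library. That is a 9.25-fold ratio with an interval of 6.42 to 13.8, and both other libraries were near the lower value, at 38 counts in the 1.0 mg/L library and 30 in the control. The gene ifi45 (ENSDARG00000017489, chromosome 13, 37605896 to 37608441) was 6.22-fold higher, at 40.9 CPM at 0.1 against 6.56 CPM at 0.01 mg/L. The antiviral GTPase gene mxb had 41 counts at 0.1 against 3 at 0.01 mg/L, a ratio of 12.8 with an interval of 4.08 to 64.6. The gene rsad2, which codes for the antiviral enzyme viperin, was 3.15-fold higher, at 8.33 CPM at 0.1 against 2.65 CPM at 0.01 mg/L. Also called were gbp2 (7.44 CPM at 0.1 against 1.80 CPM at 0.01 mg/L), parp9 (22 counts at 0.1 against 3 at 0.01 mg/L), ifi46 (8.53 CPM at 0.1 against 3.28 CPM at 0.01 mg/L) and zgc:152791 (7.54 CPM at 0.1 against 2.75 CPM at 0.01 mg/L).

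Other Mx genes differed little: mxc had 6.74 CPM at 0.1 mg/L and 6.25 CPM in the 0.01 mg/L library, beside 13.2 CPM at 1.0 mg/L, and mxd 8.43 CPM at 0.1 and 8.79 CPM at 0.01 mg/L. The RNA-editing gene adar (59.7 CPM at 0.1 against 59.4 CPM at 0.01 mg/L), trim25 (52.9 CPM at 0.1 against 51.9 CPM at 0.01 mg/L) and isg20 (4.96 CPM at 0.1 against 6.14 CPM at 0.01 mg/L) were not called either. Outside the list, and chosen after the values were seen, CABZ01073795.1 on chromosome 10, annotated as interferon-induced protein 44, had 40.4 CPM at 0.1 mg/L and 9.42 CPM in the 0.01 mg/L library. With the filter at a mean of at least 5 CPM over the 4 libraries, 6 members were called higher. At that filter 84 of all 11258 genes left were called higher.

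**Figure D2:**
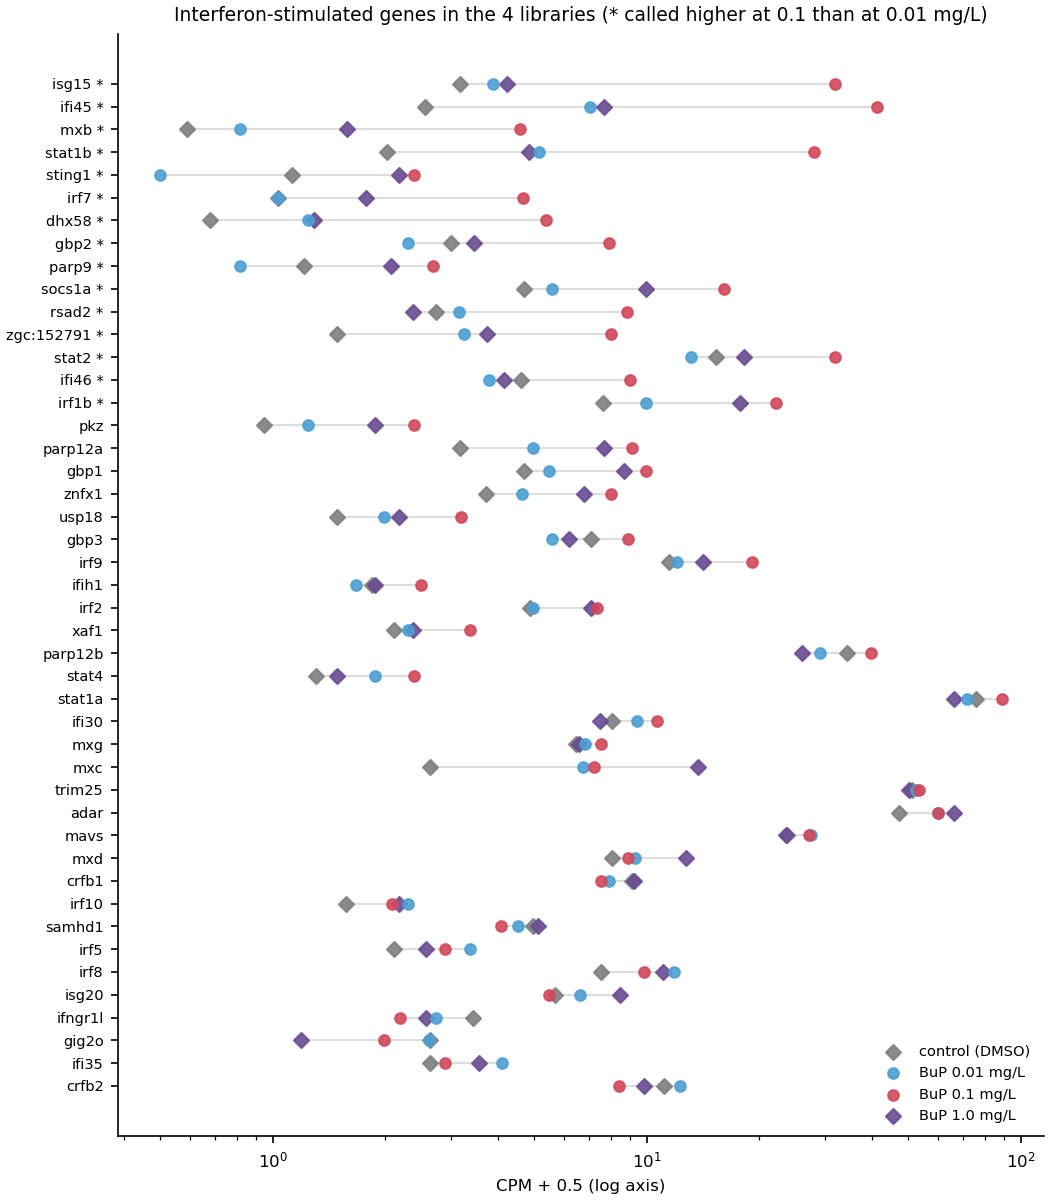
Levels of the 45 measured interferon-stimulated genes, as CPM + 0.5 on a log axis, in the control, 0.01, 0.1 and 1.0 mg/L libraries, ordered by the ratio of 0.1 over 0.01 mg/L; a star marks a gene called higher. For the 15 starred genes the red point of 0.1 mg/L lies to the right of the other 3, and for the genes in the lower part the points overlap.

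Immune genes of other kinds were called in both directions. Of 34 genes of the major histocompatibility complex (MHC) and antigen processing, 0 were called higher and 1 lower (2.94% against 3.35% of all genes), with a median log2 ratio of 0.14. The lower member was the class II gene mhc2b, at 32 counts (3.17 CPM) in the 0.1 mg/L library against 70 counts (7.41 CPM) in the 0.01 mg/L library. Its call was lost with library totals. The class I light chain gene b2m had 205 CPM at 0.1 mg/L and 167 CPM in the 0.01 mg/L library. The class I gene mhc1uba had 0 counts at 0.1 mg/L and 1 in the 0.01 mg/L library, beside 49.96 CPM at 1.0 mg/L and 42.6 CPM in the control, so it was under the floor of 3 counts in both libraries of the pair. Cytokine and complement genes had 3 of 34 members higher and 2 lower (14.7% against 3.35%), with a median of -0.04. Higher were c1qb (19 counts at 0.1 against 4 at 0.01 mg/L), c4b (7.93 CPM at 0.1 against 3.71 CPM at 0.01 mg/L) and the chemokine gene cxcl18b (33 counts at 0.1 against 13 at 0.01 mg/L, a call lost with DESeq2 size factors). Lower were the complement gene c3b.2 (4 counts at 0.1 against 20 at 0.01 mg/L, beside 94 counts at 1.0 mg/L, a call lost in TPM) and cxcl12b (28.0 CPM at 0.1 against 60.3 CPM at 0.01 mg/L, a call lost with library totals and in TPM).

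Markers of microglia, the resident macrophages of the brain, had 2 of 38 members called higher and 0 lower (5.26% against 3.35%), and a median of 0.04. Their summed level was 1124 CPM at 0.1 mg/L and 989 CPM in the 0.01 mg/L library. In whole tissue, fewer cells of a type and less RNA per cell cannot be told apart. The called members were c1qb and the cathepsin gene ctsba (ENSDARG00000055120, chromosome 17, 32622931 to 32631514), which codes for a lysosomal protease. The level of ctsba was 75.8 CPM at 0.1 mg/L, 21.5 CPM in the 0.01 mg/L library, 56.2 CPM at 1.0 mg/L and 61.9 CPM in the control. Here the 0.01 mg/L library was the one that stood apart, 3.53-fold below the 0.1 mg/L library.

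Outside the interferon list, bin2a (ENSDARG00000003219, chromosome 23, 33739215 to 33753361) had the highest ratio among genes with an informative symbol. Its human counterpart codes for a membrane-curving protein of blood and immune cells. It had 245 counts at 0.1 mg/L, 5 in the 0.01 mg/L library, 13 at 1.0 mg/L and 56 in the control, so the ratio of 45.9 (interval 19.4 to 143) sets the highest of the 4 libraries against the lowest. The galectin gene lgals17 had 100 counts at 0.1 mg/L and 3 in the 0.01 mg/L library, a ratio of 31.2 with an interval of 10.4 to 154, beside 9 counts in the 1.0 mg/L library and 2 in the control. The gene spdl1, for a protein of the mitotic spindle, had 128 counts at 0.1 against 12 at 0.01 mg/L, and tert, the catalytic part of telomerase, had 109 counts at 0.1 against 27 at 0.01 mg/L. The gene tnfaip8l2a had 15.8 CPM at 0.1 against 3.81 CPM at 0.01 mg/L. A copy of a translation elongation factor gene, eef2a.1, had 9.62 CPM at 0.1 against 2.33 CPM at 0.01 mg/L, and the collagen cross-linking gene loxl3b 19.04 CPM at 0.1 against 6.46 CPM at 0.01 mg/L. The T-box gene tbx6 had 23.6 CPM at 0.1 mg/L and 8.15 CPM in the 0.01 mg/L library, with 22.1 CPM at 1.0 mg/L and 8.82 CPM in the control.

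A few abundant genes, picked after their values were seen, add to the higher side. The gene rimkla, for an enzyme that makes the brain dipeptide N-acetylaspartylglutamate, had 222 CPM at 0.1 mg/L and 96.5 CPM in the 0.01 mg/L library. The DNA repair gene cry-dash, a light-dependent photolyase of the cryptochrome family, had 31.3 CPM at 0.1 and 13.1 CPM at 0.01 mg/L. The actin cross-linker gene flnb had 39.6 CPM at 0.1 mg/L against 16.5 CPM in the 0.01 mg/L library, and its levels at 1.0 mg/L (16.9 CPM) and in the control (15.7 CPM) lay near that of 0.01 mg/L. The widest ratio among genes with a mean over 20 CPM was that of CU984600.2 on chromosome 9, with 1337 counts at 0.1 against 86 at 0.01 mg/L. It had 99 counts in the 1.0 mg/L library and 54 in the control.

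Among genes with an informative symbol, chitinase genes had the lowest ratios. On chromosome 11, chia.3 (ENSDARG00000009612, 24013769 to 24016813) had 1 count at 0.1 mg/L and 134 in the 0.01 mg/L library, so that 0.01 over 0.1 mg/L gave a ratio of 143. The inverse ratio had an interval of 0.000176 to 0.0396. Its neighbour chia.1 (ENSDARG00000100635, 23993298 to 24000171) had 3 counts at 0.1 and 131 counts at 0.01 mg/L, and the interval of 0.1 over 0.01 mg/L ran between 0.00437 and 0.0641. At 1.0 mg/L these genes had 2 and 10 counts and in the control 6 and 10, so the 0.01 mg/L library alone held them at over 100 counts. The retinol-binding gene rbp2a, known from the intestine, showed the same order, with 0 counts at 0.1 mg/L, 40 in the 0.01 mg/L library, 6 at 1.0 mg/L and 10 in the control. It was at least 14.2-fold lower, taking 3 counts in the library as the floor.

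Other genes on the lower side spanned several roles. The laminin gene lama5, for a basement membrane protein, had 15.3 CPM at 0.1 mg/L and 54.2 CPM in the 0.01 mg/L library, beside 83.6 CPM at 1.0 mg/L. The muscle-type taxilin gene txlnbb had 22 counts at 0.1 against 110 at 0.01 mg/L, the endosomal gene zfyve9b 28 at 0.1 against 121 at 0.01 mg/L, and taco1, which aids translation of a mitochondrially encoded oxidase subunit, 21 at 0.1 against 76 at 0.01 mg/L. The phosphate transporter gene slc20a1a had 26 counts at 0.1 against 84 at 0.01 mg/L, the G protein regulator gene rgs6 28 at 0.1 against 77 at 0.01 mg/L, and nocta, a deadenylase-related gene under clock control, 46 at 0.1 against 127 at 0.01 mg/L. Listed under the symbol pimr58 were 2 kinase genes on chromosome 5, with 65 counts at 0.1 against 254 at 0.01 mg/L and 37 at 0.1 against 128 at 0.01 mg/L. Clustered protocadherins, adhesion proteins that label single neurons, went both ways: pcdh1g22 had 12.5 CPM at 0.1 mg/L and 33.0 CPM in the 0.01 mg/L library. Of its relatives, named after their values were seen, pcdh1g9 was also lower (46.9 CPM at 0.1 against 99.4 CPM at 0.01 mg/L) and pcdh1a6 higher (58.4 CPM at 0.1 against 24.7 CPM at 0.01 mg/L).

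The called corticosteroid and steroid hormone genes were lower. Of 36 measured members 0 were higher and 4 lower (11.11% against 3.35% of all genes), 24 lay below 0, and the median was -0.19. The factor gene klf9 (ENSDARG00000068194, chromosome 5, 26075230 to 26078165), a direct target of the glucocorticoid receptor, had 45 counts (4.46 CPM) at 0.1 mg/L and 158 counts (16.7 CPM) in the 0.01 mg/L library. At 1.0 mg/L and in the control it had 8.26 CPM and 7.30 CPM, between the pair. The co-chaperone gene of that receptor, fkbp5, had 172 CPM at 0.1 mg/L and 349 CPM in the 0.01 mg/L library, and the control stood at 169 CPM. Its 2.03-fold difference lost the call with library totals and in TPM. The kinase gene pdk2b had 14 counts at 0.1 against 41 at 0.01 mg/L, and pomcb, a copy of the precursor gene of corticotropin, 3 counts at 0.1 against 14 at 0.01 mg/L. The other copy, pomca, had 5.95 CPM at 0.1 and 2.86 CPM at 0.01 mg/L, and it was called higher with library totals, with a pseudocount of 0.1 and in TPM.

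Below the threshold lay the metabolic target gene pdk4 (1.88 CPM at 0.1 against 3.81 CPM at 0.01 mg/L) and the oestrogen receptor gene esr1 (3.77 CPM at 0.1 against 7.199 CPM at 0.01 mg/L). Brain aromatase, cyp19a1b, which makes oestrogen in radial glia of the fish brain, was at 474 CPM at 0.1 mg/L and 659 CPM in the 0.01 mg/L library. The glucocorticoid receptor gene nr3c1 (65.1 CPM at 0.1 against 56.7 CPM at 0.01 mg/L) and the targets tsc22d3 (131 CPM at 0.1 against 155 CPM at 0.01 mg/L) and sgk1 (171 CPM at 0.1 against 157 CPM at 0.01 mg/L) differed by under 1.5-fold.

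Of 32 clock repressor and output genes 2 were higher and 1 lower (9.38% against 3.35% of all genes), with a median of 0.09, and of 11 activators none was called, with a median of -0.08. The repressor gene ciarta had 28.5 CPM at 0.1 mg/L and 13.02 CPM in the 0.01 mg/L library, beside 12.9 CPM at 1.0 mg/L and 47.8 CPM in the control. The nuclear receptor gene nr1d4b had 16.8 CPM at 0.1 and 7.62 CPM at 0.01 mg/L. Under 2-fold but in the same direction were nr1d1 (91.3 CPM at 0.1 against 47.0 CPM at 0.01 mg/L), per1b (99.97 CPM at 0.1 against 56.2 CPM at 0.01 mg/L) and per3 (98.7 CPM at 0.1 against 61.0 CPM at 0.01 mg/L). In nr1d1, per1b and per3 the control lay near the 0.1 mg/L library and 1.0 mg/L near or below 0.01 mg/L, unlike in nr1d4b. Output factors of the PAR bZIP family were uneven. The gene hlfb had 9 counts at 0.1 mg/L and 42 in the 0.01 mg/L library. Without a call, tefb had 17.5 CPM at 0.1 against 32.8 CPM at 0.01 mg/L, and tefa 205 CPM at 0.1 against 174 CPM at 0.01 mg/L. The genes dbpb, hlfa and dbpa differed by under 1.5-fold. The activator with the widest ratio was rorcb, at 48.3 CPM at 0.1 and 67.2 CPM at 0.01 mg/L. The sources used here do not state the time of day at sampling, and its part was not tested.

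Synaptic plasticity and memory genes held 0 higher and 4 lower calls among 62 members (6.45% against 3.35%), with 40 below 0 and a median of -0.18. The gene camk2a, for the alpha subunit of CaMKII, had 293 counts (29.1 CPM) at 0.1 mg/L and 690 counts (73.0 CPM) in the 0.01 mg/L library, a 2.51-fold difference. The library at 1.0 mg/L was as low, at 32.2 CPM, and the control was at 55.4 CPM. Its relative camk2b2 had 24 counts at 0.1 against 52 at 0.01 mg/L, a call lost with library totals and in TPM, whereas camk2b1 had 677 CPM at 0.1 against 683 CPM at 0.01 mg/L and camk2g2 336 CPM at 0.1 against 322 CPM at 0.01 mg/L. The adenylate cyclase gene adcy1a had 5 counts at 0.1 mg/L and 36 in the 0.01 mg/L library, and the Ras exchange factor gene rasgrf2a 21 at 0.1 and 66 at 0.01 mg/L. For rasgrf2a the 0.01 mg/L library stood apart, at 6.99 CPM, while the others held 2.08 to 2.66 CPM. Without a call were nrgna, for the calmodulin-binding neurogranin (138 CPM at 0.1 against 241 CPM at 0.01 mg/L), syngap1a, shank3b and dlg4a. The growth factor gene bdnf was at 73.6 CPM at 0.1 and 76.2 CPM at 0.01 mg/L. Despite the lower median, the summed level of the list was nearly equal, at 8048 CPM at 0.1 mg/L and 8033 CPM in the 0.01 mg/L library, and abundant members such as camk2b1 hardly differed.

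**Figure D3:**
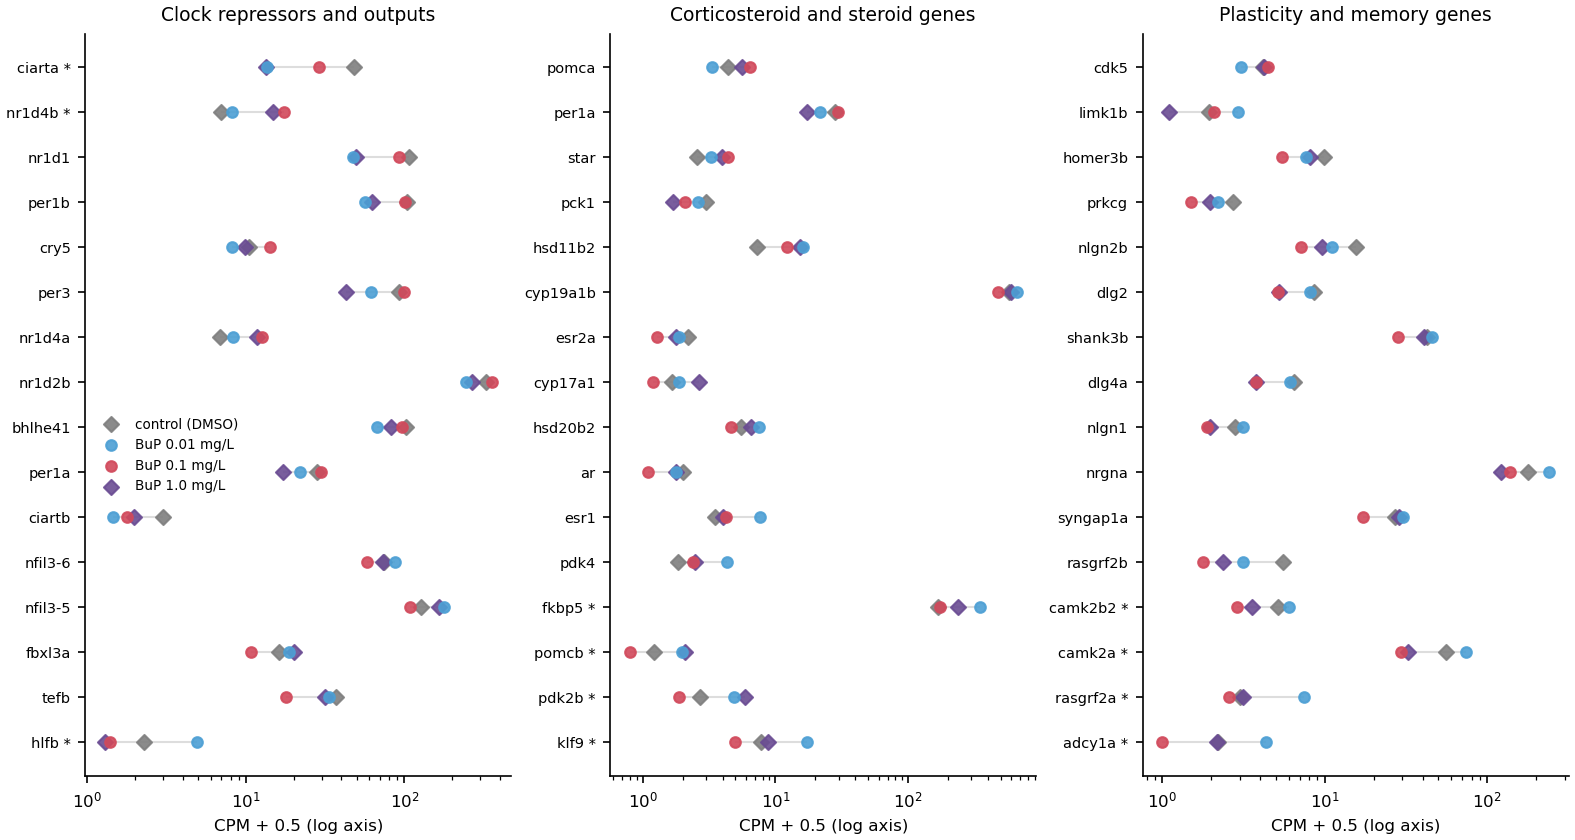
Levels (CPM + 0.5, log axis) in the 4 libraries of the 16 members with the widest ratio of 0.1 over 0.01 mg/L in the clock repressor and output, corticosteroid and steroid, and plasticity and memory lists, with a star for each called gene. In the clock panel the red 0.1 mg/L points of ciarta, nr1d1 and per1b lie nearer to the grey control than the blue 0.01 mg/L points do, and in the other panels blue lies to the right of red for klf9, fkbp5, camk2a and adcy1a.

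Of 48 glutamate receptor and transport genes none was called (median -0.03), the widest being grin2cb at 4.76 CPM at 0.1 against 8.79 CPM at 0.01 mg/L. Of 49 cholinergic and monoamine genes none was called (median 0.01), the widest being tph1b with 7 counts at 0.1 against 17 at 0.01 mg/L. Genes of the immediate early response to neuronal activity had klf9 as their single call among 50 (2% against 3.35%), with a median of -0.01. Synaptic vesicle genes had 1 of 61 called (1.64% against 3.35%) and a median of 0.01. The call was the release factor gene unc13ba, with 22 counts at 0.1 against 58 at 0.01 mg/L. That call was lost in TPM. GABA and glycine signalling genes had 2 of 38 called higher (5.26% against 3.35%) and a median of -0.15: the glycine transporter gene slc6a5 had 21.1 CPM at 0.1 mg/L and 9.21 CPM in the 0.01 mg/L library, and the receptor gene gabrr2b 23 counts at 0.1 and 3 at 0.01 mg/L.

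Neuropeptide and hormone precursor genes went both ways, with 3 of 51 higher and 3 lower (11.76% against 3.35% of all genes) and a median of -0.00. The oxytocin gene oxt (ENSDARG00000042845, chromosome 5, 72087619 to 72093253) had 649 counts (64.4 CPM) at 0.1 mg/L and 2017 counts (214 CPM) in the 0.01 mg/L library. Its level was 22.1 CPM at 1.0 mg/L and 140 CPM in the control, so over the 3 doses it was lower at each step. The related avp was at 4.96 CPM at 0.1 and 9.10 CPM at 0.01 mg/L, without a call. The feeding peptide gene agrp had 3.57 CPM at 0.1 mg/L, 8.57 CPM in the 0.01 mg/L library and 12.9 CPM in each of the other libraries. Higher were calca, for calcitonin-related peptides (12.4 CPM at 0.1 against 4.45 CPM at 0.01 mg/L), the natriuretic peptide gene nppc (31 counts at 0.1 against 7 at 0.01 mg/L) and rln3a, a gene of the relaxin family (6.45 CPM at 0.1 against 2.43 CPM at 0.01 mg/L). Of 11 pituitary hormone genes pomcb alone was called (9.09% against 3.35%), and the median was -0.01. Hypothalamic and preoptic transcription factors, a marker list of the region that makes oxt, had 1 of 32 called (3.1% against 3.35%) and a median of -0.09. The call was lhx8a, at 4 counts at 0.1 against 17 at 0.01 mg/L.

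Marker genes of brain regions were compared because dissection can vary. Of the Hox genes, which mark the hindbrain and spinal cord, 6 of 48 passed the filter. Of these hoxb5b was called higher (16.67% against 3.35% of all genes), at 44 counts at 0.1 against 13 at 0.01 mg/L. The others were not called, with hoxb5a at 5.65 CPM at 0.1 against 3.07 CPM at 0.01 mg/L and hoxa4a at 5.16 CPM at 0.1 against 2.96 CPM at 0.01 mg/L, and the median was 0.53. Their summed level was 24.1 CPM at 0.1 mg/L and 14.4 CPM in the 0.01 mg/L library, beside 17.6 CPM at 1.0 mg/L and 13.8 CPM in the control. The glycine transporter gene slc6a5, also higher at 0.1 mg/L, marks neurons that are frequent in the hindbrain and spinal cord. It belongs to the GABA and glycine list, where 25 of 38 members lay below 0 and the median was -0.15. Telencephalon transcription factors had none of 26 called, 18 below 0 and a median of -0.16, with gsx2 the widest at 7 counts at 0.1 against 15 at 0.01 mg/L. Their summed level went the other way, at 1410 CPM at 0.1 against 1256 CPM at 0.01 mg/L. That direction rests on the most abundant member, zic2a (739 CPM at 0.1 against 550 CPM at 0.01 mg/L). Its difference is larger than that of the whole sum. Cerebellum genes had 2 of 27 higher (7.41% against 3.35%), cbln13 with 39 counts at 0.1 against 4 at 0.01 mg/L and aldoca, and a median of 0.19. In that list 18 members lay above 0 and 9 below. Among those below, without a call, were pvalb7 (194 CPM at 0.1 against 319 CPM at 0.01 mg/L) and pcp4a (231 CPM at 0.1 against 322 CPM at 0.01 mg/L). The part of dissection in these values and in the other differences was not tested.

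Glial lists had medians near that of all genes. Radial glia and astroglia markers had 2 of 37 higher and 2 lower (10.8% against 3.35%), with a median of -0.05. Higher were aldoca, a glycolytic enzyme gene of astroglia and Purkinje cells, at 213 CPM at 0.1 against 104 CPM at 0.01 mg/L with 376 CPM at 1.0 mg/L, and the prostaglandin synthase gene ptgdsb.1 at 91.0 CPM at 0.1 against 45.0 CPM at 0.01 mg/L. The call of ptgdsb.1 was lost with DESeq2 size factors. Lower were the Notch target her4.2 (35 counts at 0.1 against 73 at 0.01 mg/L) and apoa2 (16 at 0.1 against 36 at 0.01 mg/L), and library totals and TPM each ended both calls. Of 32 oligodendrocyte and myelin markers none was called (median 0.01), the widest being enpp6 at 80 counts at 0.1 against 41 at 0.01 mg/L. Their summed level was lower, at 14580 CPM at 0.1 against 17580 CPM at 0.01 mg/L. Most of that sum was mbpa, at 11460 CPM at 0.1 against 14710 CPM at 0.01 mg/L. The difference in mbpa is larger than that of the whole sum.

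Light-sensing genes were mostly scarce. Rod and cone phototransduction genes had 22 of 70 measured, 2 higher (9.09% against 3.35%) and a median of -0.07: the kinase gene grk1b had 45 counts at 0.1 mg/L and 3 in the 0.01 mg/L library, and rp1l1b 18 at 0.1 and 0 at 0.01 mg/L, a call lost in TPM. The transducin genes gnat1 (3 counts at 0.1 against 1 at 0.01 mg/L) and gngt1 (2 at 0.1 against 7 at 0.01 mg/L) were close to undetected in both libraries. Pineal and non-visual photoreception genes had none of 18 called (median -0.08), with the pineal opsin gene exorh at 6.25 CPM at 0.1 against 12.17 CPM at 0.01 mg/L. Retinoid and visual cycle genes had 1 of 43 higher and 1 lower (4.65% against 3.35%), with a median of 0.13. Higher was the retinol receptor gene stra6 (19 counts at 0.1 against 6 at 0.01 mg/L, a call lost in TPM), and lower was rbp2a.

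Genes of chemical defence are of interest because parabens are taken up and broken down. They had 1 higher and 1 lower call among 55 (3.64% against 3.35% of all genes) and a median of -0.02. The gene cyp1a, the classical target of the aryl hydrocarbon receptor, had 400 counts (39.7 CPM) at 0.1 mg/L and 133 counts (14.1 CPM) in the 0.01 mg/L library, a 2.82-fold ratio with an interval of 2.31 to 3.46. The levels at 1.0 mg/L and in the control were 24.5 CPM and 16.8 CPM. The relative cyp1c1 was lower, with 8 counts at 0.1 against 23 at 0.01 mg/L, a call lost in TPM, and the targets cyp1d1 (8.43 CPM at 0.1 against 4.34 CPM at 0.01 mg/L) and ahrra (43 counts at 0.1 against 20 at 0.01 mg/L) did not pass. Heat shock and chaperone genes had 2 of 99 lower (2.02% against 3.35%) and a median of -0.05. These were fkbp5 and dnajb5 (5 counts at 0.1 against 23 at 0.01 mg/L). Cholesterol synthesis genes had 1 of 34 higher (2.94% against 3.35%) and a median of 0.12. It was pmvk (48 counts at 0.1 against 20 at 0.01 mg/L), a call lost with DESeq2 size factors. Glycolysis and hypoxia genes had 1 higher and 1 lower call among 58 (3.45% against 3.35%), with a median of -0.09. Higher was aldoca, and lower was hif1al2 (25 counts at 0.1 against 57 at 0.01 mg/L, a call lost in TPM).

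Markers of tissues around the brain were uneven. Skin and keratin markers had 1 of 22 higher and 3 lower (18.2% against 3.35%), with 18 below 0 and a median of -0.38. The keratin gene krt15 had 69 counts at 0.1 mg/L and 183 in the 0.01 mg/L library, tgm1l4 47 at 0.1 and 116 at 0.01 mg/L, and krt97 7 at 0.1 and 25 at 0.01 mg/L, while the envoplakin gene evplb had 124 at 0.1 and 36 at 0.01 mg/L. The summed level was 333 CPM at 0.1 mg/L and 424 CPM in the 0.01 mg/L library, beside 334 CPM at 1.0 mg/L and 349 CPM in the control, and epcam had 3 counts at 0.1 and 0 at 0.01 mg/L. Endothelial and pericyte markers had 2 of 45 higher (4.44% against 3.35%) and a median of -0.11. These were the pericyte factor gene foxf2a (34 counts at 0.1 against 8 at 0.01 mg/L) and the lymphatic receptor gene flt4 (16 at 0.1 against 4 at 0.01 mg/L, a call lost in TPM). Collagen and meninges genes had 2 of 57 higher and 1 lower (5.26% against 3.35%), with a median of 0.02. Higher were col1a1b (28.9 CPM at 0.1 against 13.3 CPM at 0.01 mg/L) and the collagenase gene mmp13b (15.1 CPM at 0.1 against 6.25 CPM at 0.01 mg/L). Lower was col11a1b (5 counts at 0.1 against 16 at 0.01 mg/L, a call lost in TPM).

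Of 26 blood cell markers 1 was called higher (3.85% against 3.35% of all genes), the neutrophil protease gene npsn (70 counts at 0.1 against 24 at 0.01 mg/L). The median of the blood list was -0.13. Skeletal muscle markers had 3 of 37 higher (8.11% against 3.35%) and a median of 0.13: casq2, the calcium store gene of muscle, had 27.7 CPM at 0.1 against 13.2 CPM at 0.01 mg/L, myhz1.1 30 counts at 0.1 against 11 at 0.01 mg/L and tnnt2d 32 at 0.1 against 11 at 0.01 mg/L. The call of myhz1.1 was lost in TPM. Pigment cell markers had none of 14 called (median 0.03), the widest being gch2 with 5 counts at 0.1 against 14 at 0.01 mg/L. Motile cilia genes, active in the lining of the ventricles, had 4 of 51 higher and 2 lower (11.76% against 3.35% of all genes). Many of them were scarce, and at a mean of 1 to 5 CPM over the pair 7.41% of all genes were called. The master factor gene of these cilia, foxj1a, had 63 counts at 0.1 against 18 at 0.01 mg/L, beside 45 at 1.0 mg/L and 87 in the control. The gene armc4 had 29 at 0.1 against 4 at 0.01 mg/L, beside 37 at 1.0 mg/L and 40 in the control. Also higher were dnah12 (48 counts at 0.1 against 13 at 0.01 mg/L) and spag1b (6.15 CPM at 0.1 against 2.22 CPM at 0.01 mg/L). Lower were cfap70 (10 counts at 0.1 against 42 at 0.01 mg/L) and rsph4a (1.49 CPM at 0.1 against 3.71 CPM at 0.01 mg/L). Of the genes called higher, 1 had its highest level of the 4 libraries at 0.1 mg/L. The call of dnah12 was lost in TPM. The median of the list, 0.13, changed sign relative to all genes with no filter and in TPM.

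Proliferation genes had 1 of 64 higher (1.56% against 3.35% of all genes) and a median of 0.09. It was cdk1, with 14 counts at 0.1 against 4 at 0.01 mg/L. Egg coat and oocyte genes, which the control library alone holds in quantity, summed to 61.3 CPM at 0.1 mg/L and 61.1 CPM in the 0.01 mg/L library against 804 CPM in the control. Their 32 members passed the filter mostly through the control, and 1 was called (3.1% against 3.35% of all genes). This gene, zp3d.1, had 9 counts at 0.1 against 1 at 0.01 mg/L, and its call was lost in TPM.

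Of 83 ribosomal protein genes 81 lay above 0, with a median of 0.23, or 0.21 above that of all genes. A single member passed the rule (1.2% against 3.35% of all genes). It was rps27l, which had 57 counts at 0.1 mg/L and 18 in the 0.01 mg/L library. The 13 protein genes of the mitochondrial genome lay below 0 without exception, with a median of -0.47 and none called. The widest was mt-atp8, at 229 CPM at 0.1 against 388 CPM at 0.01 mg/L, and the narrowest mt-nd3, at 2577 CPM at 0.1 against 2966 CPM at 0.01 mg/L. Oxidative phosphorylation genes of the nuclear genome split into 47 above and 38 below 0, with a median of 0.03. Of these 85 genes 1 was higher (1.18% against 3.35%), cox4i1l, with 82 counts at 0.1 against 34 at 0.01 mg/L. All mitochondrial genes together took 26.3% of counts at 0.1 mg/L and 32.3% at 0.01 mg/L, beside 28.2% at 1.0 mg/L and 29.3% in the control.

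Several classes of non-coding RNA had lower summed levels in the 0.1 mg/L library than in the 0.01 mg/L library. The libraries were made with an mRNA kit, and how far these levels reflect the tissue was not tested. Entries of ribosomal RNA summed to 34.7 CPM at 0.1 mg/L and 95.3 CPM in the 0.01 mg/L library, those of spliceosomal small nuclear RNA (snRNA) to 51.9 CPM at 0.1 and 113 CPM at 0.01 mg/L, and those of small nucleolar RNA to 3.27 CPM at 0.1 and 10.4 CPM at 0.01 mg/L. In each of these classes the 0.01 mg/L library was the highest of the 4. Processed transcripts, another non-coding class, summed to 3049 CPM at 0.1 and 2947 CPM at 0.01 mg/L. Of 139 measured, 9 were called higher and 9 lower (12.9% against 3.35% of all genes). Long intergenic non-coding RNA (lincRNA) summed to 17861 CPM at 0.1 and 30104 CPM at 0.01 mg/L, much of it CT027638.1 on chromosome 20, with 59239 counts at 0.1 and 150234 counts at 0.01 mg/L. On chromosome 5, zgc:158463 (824709 to 825920), which lies among ribosomal RNA entries, had 7746 CPM at 0.1 mg/L and 16430 CPM in the 0.01 mg/L library, with 4697 CPM at 1.0 mg/L and 6276 CPM in the control.

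Some of these entries were present in one library and absent in the next. The snRNA copies FP102120.2 and FP102120.3 on chromosome 9 had 0 counts at 0.1 mg/L and 124 each in the 0.01 mg/L library, at least 44.1-fold lower, and 0 counts at 1.0 mg/L against 87 in the control. The copies share the same values in every library. The ribosomal RNA entry BX537263.4 went the other way and had 174 counts at 0.1 mg/L and 0 in the 0.01 mg/L library, at least 54.3-fold higher. It was the only higher call among 3 measured ribosomal RNA entries. Of these 3 entries, 2 were called lower, and the summed level of the class was lower at 0.1 mg/L. How the counting program shared reads among such entries was not tested, so the value of a single entry is uncertain. The share of mitochondrial, ribosomal and small nuclear RNA thus moved together with the pair compared throughout, and its part in the differences above was not tested. With the mitochondrial genes left out before scaling, 307 genes were called higher and 317 lower.

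**Figure D4:**
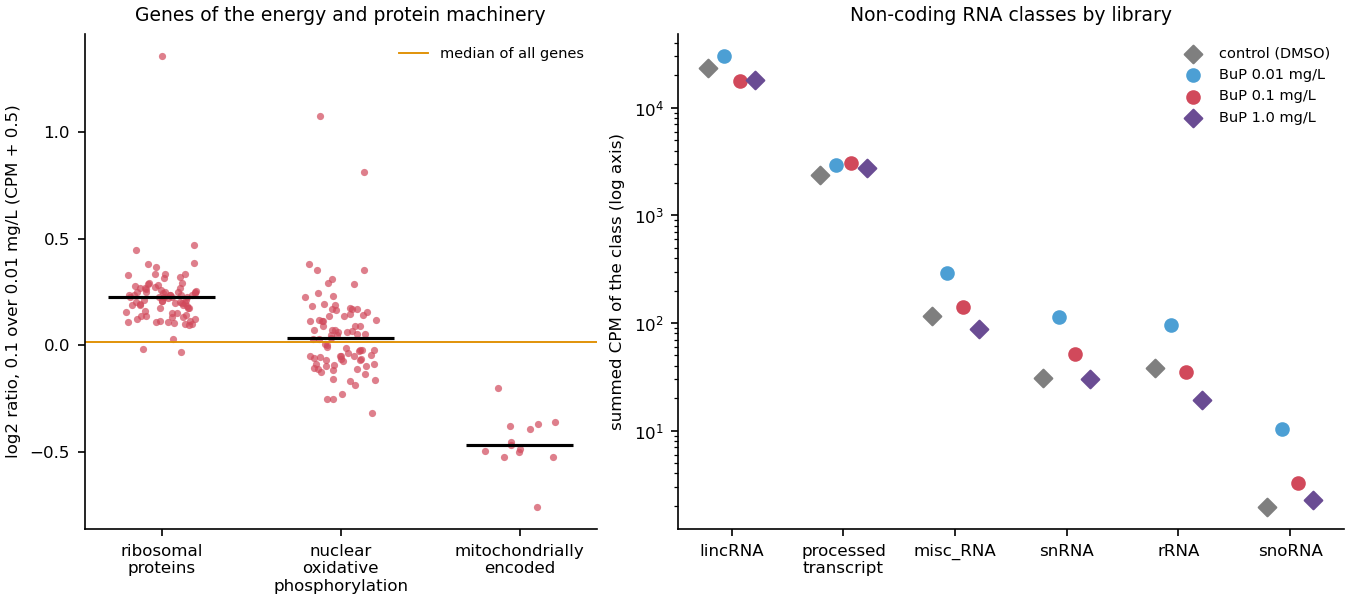
On the left, the log2 ratio of 0.1 over 0.01 mg/L (CPM + 0.5) for 83 ribosomal protein genes, 85 nuclear oxidative phosphorylation genes and 13 mitochondrially encoded genes, with black bars at their medians of 0.23, 0.03 and -0.47. On the right, the summed CPM (log axis) of 6 non-coding RNA classes in each library. The 0.01 mg/L library is the highest point in each class but processed transcripts, where 0.1 mg/L is.

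**Figure D5:**
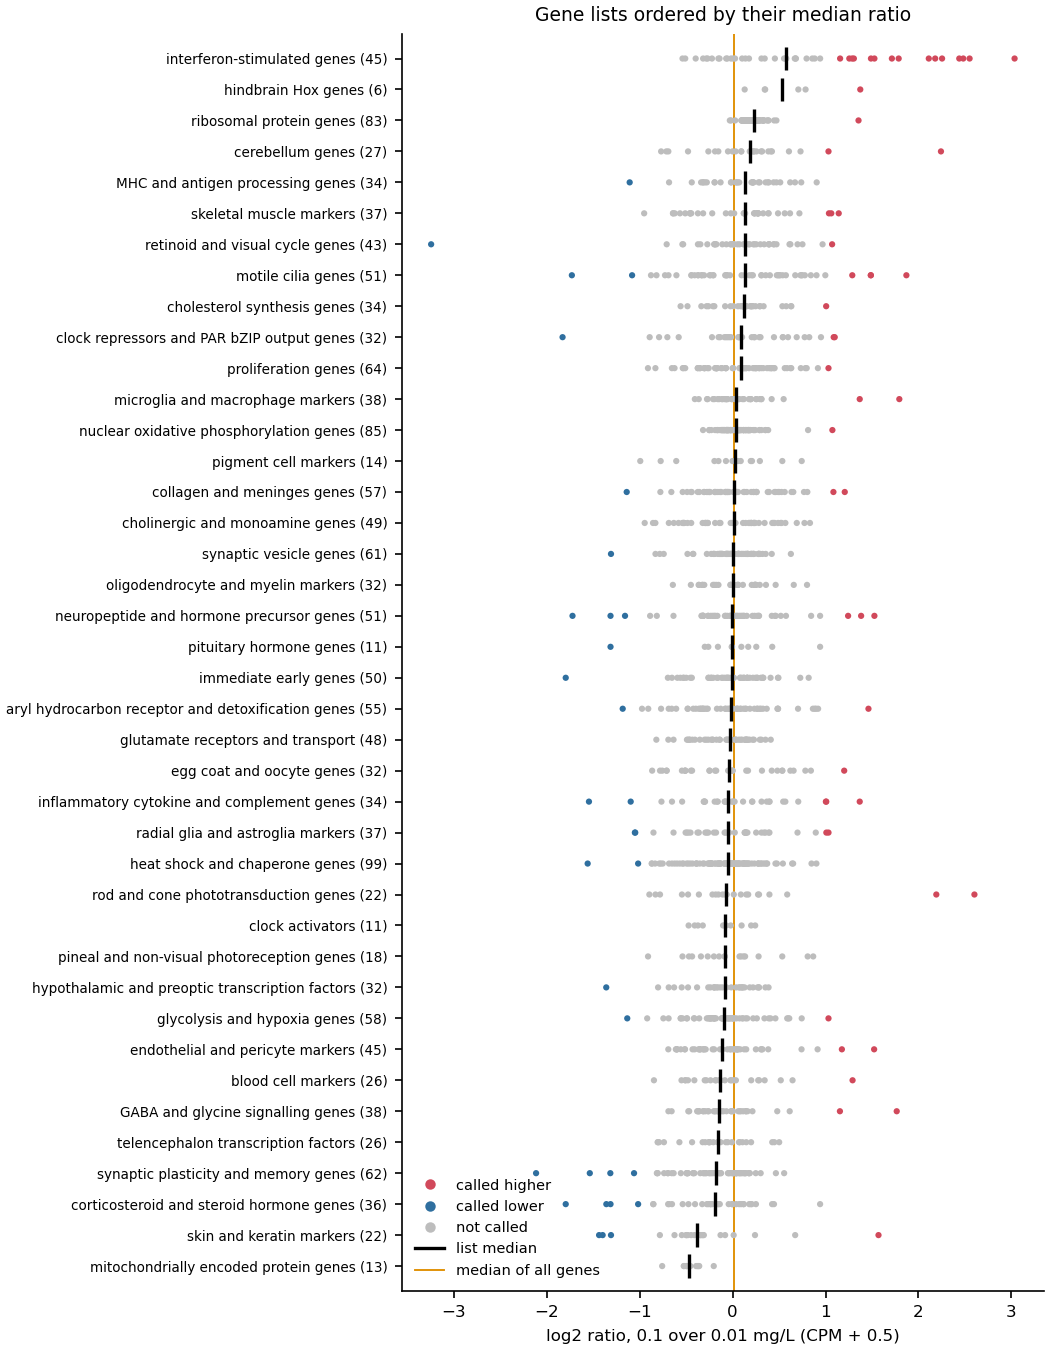
The log2 ratio of 0.1 over 0.01 mg/L (CPM + 0.5) of each measured member of 40 gene lists, ordered by list median (black bar), with the number measured in brackets; members called higher are red, called lower blue, and the orange line is the median of all genes, 0.02. Interferon-stimulated genes (0.58) and Hox genes (0.53) stand at the top, and skin and keratin markers (-0.38) and mitochondrially encoded genes (-0.47) at the bottom.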

How the data were processed

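RNA of 4 brain libraries was read as 151 bp paired ends from a stranded mRNA kit, per the labels' protocols. The submitters' processing notes name RSEM 1.3.1, STAR 2.7.1a, cutadapt 2.8 and the build GRCz11. The authors deposited 1 table that holds, per the file headers, a read count and a TPM value per gene and library, and RSEM makes such values as an estimated count. These counts were already whole, so rounding left them as they were.

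From them, CPM was computed with TMM factors (edgeR 4.0.16, R 4.3.3): 1.02 at 0.1 mg/L, 0.931 at 0.01 mg/L, 1.04 at 1.0 mg/L and 1.01 in the control. Log2 ratios use CPM + 0.5, which understates the ratio of scarce genes, whereas the fold of a single gene is taken on CPM alone. Intervals are exact Clopper-Pearson at 95%, conditional on the summed counts. A floor of 3 counts, 0.298 CPM at 0.1 mg/L and 0.318 CPM in the 0.01 mg/L library, stands for a count of 0. The calling step was tested on simulated counts that held counting error alone. That test cannot show how often single libraries of like fish would differ by the same rule. Other steps used Python 3.11.15, matplotlib 3.10.9, scipy 1.17.1, pandas 2.3.3 and numpy 2.4.6.

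Named genes were called, averaged at least 5 CPM over the pair, had an informative symbol, and were the 15 highest or 15 lowest. To these were added up to 4 called members per list, or the widest where none was called, and genes with at most 3 counts in one library and at least 100 in the other. Other genes illustrate their list or were chosen after their values were seen. The comparison and its 40 lists were chosen with earlier results of these data known. Alternatives were DESeq2 1.42.0 size factors, library totals, TMM of the pair, other filters, pseudocounts of 0.1 and 2 CPM, leaving out mitochondrial genes, and TPM.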

Additional observations from a re-analysis of the deposited data

How the results depend on the processing

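With 1 library per group, leaving out a replicate was not possible, and no paired analysis was possible because each group has 1 library. Counts of called genes moved mostly with the handling of scarce genes. With no filter beyond 1 count in the pair, 461 genes were higher and 461 lower. With a mean of at least 5 CPM, 84 of the 11258 genes left were higher and 63 lower. With a pseudocount of 2 CPM, 98 were higher and 76 lower. In the authors' TPM 121 were lower. Under the other alternatives of the 10 tried, the 2 counts moved by under 1.5 times. Among interferon-stimulated genes 6 were higher at a mean of at least 5 CPM. Among plasticity and memory genes 1 was lower at that filter. Among corticosteroid and steroid genes 2 were lower at that filter and 2 with a pseudocount of 2, and 1 was higher with library totals, with a pseudocount of 0.1 and in TPM. The median of motile cilia genes relative to all genes turned to -0.048 with no filter and -0.062 in TPM. The cause was not tested. Of 919 values of the 97 named genes under alternatives, 852 kept their side of the threshold, 62 lost the call, 5 gained it and 0 changed sign. The lost calls fall on 37 genes. A pseudocount of 2 CPM ended them for most of these, among them c1qb, hoxb5b, pdk2b, pomcb, lhx8a, gabrr2b, nr1d4b, rps27l and cox4i1l, which kept the call under the other alternatives that tested them. Depth limits scarce genes: a gene at 3 counts has 0.298 CPM at 0.1 mg/L and 0.318 CPM in the 0.01 mg/L library.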
